A study of Mus musculus with 9 samples.

Results

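Ribosome biogenesis genes encode the proteins that build ribosomes in the nucleolus. The set described here held 44 such genes, listed by symbol, and 41 of them were measured by a probe set whose annotation carries that symbol, among 19572 named probe sets. Each of the 41 had 1 such probe set. Nop56, Ebna1bp2 and Gnl3 were not analysed here.

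Expression was measured in C1498, a mouse leukaemia cell line, on 9 single-colour arrays of biotin-labelled total RNA. All cells carried a lentiviral construct with green fluorescent protein (GFP), and GFP-positive cells were isolated 2 weeks after infection. The 3 groups were a negative control construct (Scr, replicates 7, 8 and 9), a short hairpin RNA against ZEB-1 of sequence C (shZeb1_C, replicates 10, 11 and 12) and one of sequence D (shZeb1_D, replicates 13, 14 and 15). Each hairpin is a single sequence in a single cell line. Whether replicates were infected separately is not stated in the labels. The p-values therefore reflect only how far these samples spread, and that spread may be technical. Zeb1 is a zinc-finger transcription factor, and the title of the series places the study in acute myeloid leukaemia and its effect on T cells.

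Ribosome assembly begins when RNA polymerase I transcribes the ribosomal RNA precursor. Small nucleolar ribonucleoproteins (snoRNPs) of the box C/D type methylate it, and those of the box H/ACA type convert uridines to pseudouridine. The small subunit processome and a chain of large subunit assembly factors then fold and cleave it into the subunits. In dividing cells, leukaemia cells included, this pathway is known as a growth-linked programme under the transcription factor Myc, which binds the hexamer CACGTG.

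Ddx10, an RNA helicase of the small subunit processome, was the only member to pass the test against Scr. It passed with sequence D but not with sequence C alone, and the call was lost on leaving out some single arrays. Its neighbours on chromosome 9 also stood lower. The upstream sequence of Ddx10 is shown because of that call. It held neither the CACGTG hexamer nor CACCTG, a hexamer that Zeb1 is known to bind. On the other strand the latter reads CAGGTG. Sequences are from RefSeq on GRCm38.p6, 5′ to 3′, and capitals mark the hexamer where there is one. The Ddx10 stretch is chr9:53248171-53248362, minus strand. The Nop2 window (chr6:125131799-125131852, plus strand) and both Rrn3 windows (chr16:13780460-13780513 and chr16:13780627-13780680, plus strand) show CACGTG at positions -60, -215 and -48 from the start. The Ubtf window (chr11:102319309-102319338, minus strand) shows the only CACCTG match among the members, at position -230.
Ddx10: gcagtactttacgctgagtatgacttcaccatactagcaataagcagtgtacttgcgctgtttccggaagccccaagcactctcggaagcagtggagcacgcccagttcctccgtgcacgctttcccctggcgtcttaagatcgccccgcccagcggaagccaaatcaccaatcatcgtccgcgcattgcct
Nop2: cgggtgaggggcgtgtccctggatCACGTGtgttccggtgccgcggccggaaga
Rrn3, distal: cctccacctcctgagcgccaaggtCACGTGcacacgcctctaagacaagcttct
Rrn3, proximal: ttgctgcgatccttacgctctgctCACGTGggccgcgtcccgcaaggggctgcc
Ubtf: ccggaggccccgCAGGTGagtgggagctgg

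RefSeq promoters, 250 bases before to 50 after a start, were at hand for 37 of the 41 measured genes. CACGTG occurred in 8 of the 37 (21.6%), against 9.26% of the 15691 measured genes with a promoter in the table. The 8 were Mybbp1a, Nop2, Pes1, Rrn3, Tsr1, Utp20, Utp4 and Wdr43. Only in Nop2 and Rrn3 did the match lie before the start. It lay after the start in Mybbp1a (position 40), Pes1 (2), Tsr1 (24), Utp20 (37), Utp4 (15) and Wdr43 (17). CACCTG occurred in 1 of the 37 (2.7%), against 22.1% of the measured genes. Counted per promoter, the shares were 17.4% against 8.11% for CACGTG and 2.17% against 19.7% for CACCTG. The hexamers do not overlap each other, both strands were searched, and the median G and C content was 59.3% in the members' promoters and 57.0% in all. In shZeb1_D against Scr the log2 differences of the 8 genes with CACGTG ran from -0.85 (Nop2) to -0.08 (Utp4), and 0 of them passed the test. These matches describe the letters only. The measured genes used for comparison were not matched to the members by expression level.

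Zeb1 itself, the targeted gene, was lower with sequence D and little different with sequence C. Its log2 signal averaged 10.46 ± 0.15 (SD, n = 3) over the Scr arrays, 10.25 ± 0.21 with sequence C (limma adjusted p = 0.895) and 9.41 ± 0.15 with sequence D (limma adjusted p = 0.0263). The leukocyte marker Ptprc stood at 14.87 in Scr, but Spi1 (5.34), of the same list, and 8 of 10 myeloid markers, among them Cebpa (6.06), lay below the median level of all probe sets (7.10), while Cd3g (15.53) and Cd3e (14.65) of the T cell receptor complex lay above it. The array values therefore go against the myeloid name of the line at the level of these markers. Averaged over all arrays, 7 of the 11 measured T and NK genes lay above the median level. In Scr, however, Nkg7 (4.58), Ncr1 (4.69), Klrc1 (5.13), Gzmb (6.06) and Cd8a (6.32) of that list lay below it. Summed marker signal, as the log2 of the mean over a list, ran from 6.41 to 6.64 for the myeloid list over all 9 arrays, and for T and NK cells from 12.69 to 13.09 in Scr, 12.96 to 13.14 in shZeb1_C and 12.63 to 12.69 in shZeb1_D. The latter sum is carried by bright genes such as Cd3g, and 3 of the 11 measured T and NK genes rose in shZeb1_C, namely Nkg7 by 5.93 ± 0.80 (SE), Gzmb by 4.33 ± 0.59 and Klrc1 by 3.02 ± 0.44 on the log2 scale (limma adjusted p of 0.0109, 0.0109 and 0.0157). In shZeb1_D these cytotoxic cell genes differed from Scr by 0.60 ± 0.80, 0.21 ± 0.59 and 0.17 ± 0.44, without a call. The part of these markers in the members' differences was not tested. B cell and epithelial markers were all below the median level (0 of 4 and 0 of 3 above it). Of the measured erythroid and stromal markers, 1 of 2 (Epor) and 1 of 3 (Col1a1) were above it. In bulk RNA, fewer cells of a type and less RNA per cell cannot be told apart.

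Against Scr, 1 of 41 ribosome biogenesis genes was called lower in shZeb1_D and 0 were called in shZeb1_C. Over all named probe sets limma called 0.945% in shZeb1_C and 0.843% in shZeb1_D (0.286% and 0.445% lower), so these counts lie near the background. At an unadjusted p under 0.05, 2 members passed in shZeb1_C, where 8.77% of all probe sets did, and 5 in shZeb1_D, where 13.6% did. Most differences were below 0 all the same. The log2 difference was negative for 38 of 41 members in shZeb1_C and 35 of 41 in shZeb1_D, compared with 54.3% and 54.9% of the 9786 probe sets above the median level. The median over the members was -0.29 in shZeb1_C and -0.24 in shZeb1_D, while the median over those brighter probe sets was -0.03 and -0.05. The shZeb1_C median was -0.11 without shZeb1_C 12, and the shZeb1_D median was -0.43 without Scr 8 and -0.38 without shZeb1_D 13. Both comparisons share the Scr arrays. With array medians subtracted the medians were -0.36 and -0.32, and after a second quantile normalization -0.25 and -0.17.

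**Figure D1:**
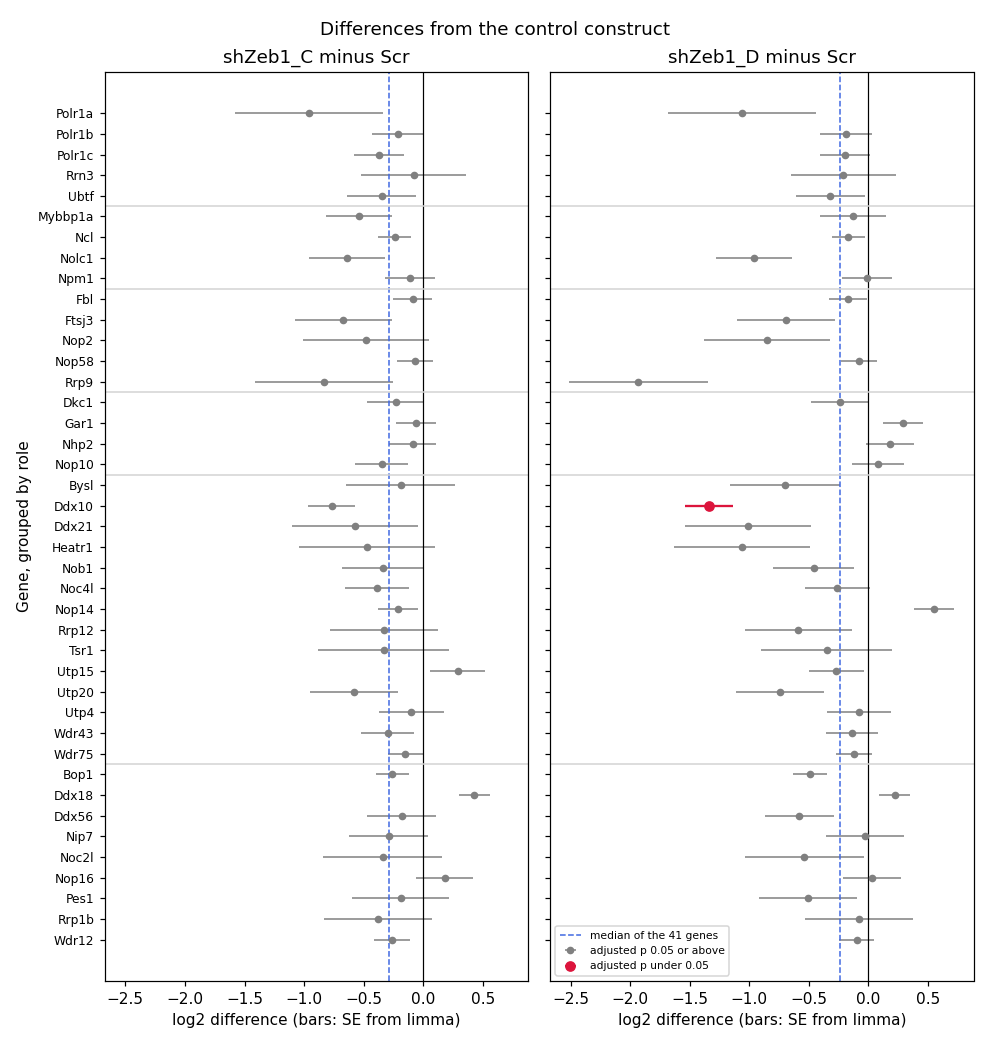
Log2 difference from Scr (x axis, bars show the limma SE) of each of the 41 genes (y axis, grouped by role), with shZeb1_C on the left and shZeb1_D on the right; the dashed line is the median of the 41 genes (-0.29 and -0.24). Ddx10 in shZeb1_D, in red, is the only point with an adjusted p under 0.05.

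These medians were about as large as the spread between arrays of a group. The mean log2 signal over the 41 genes was 12.80, 12.58 and 13.00 on Scr arrays 7, 8 and 9. It was 12.73, 12.67 and 12.09 on shZeb1_C arrays 10, 11 and 12, and 12.70, 12.34 and 12.22 on shZeb1_D arrays 13, 14 and 15. The groups overlapped, and the pooled SD of this mean within groups was 0.28. The lowest array of each group, Scr 8, shZeb1_C 12 and shZeb1_D 15, lay below its group mean for 29, 34 and 28 of the 41 genes. On shZeb1_D 14 it was 27 genes, while on the other 5 arrays it was 6 to 17. Over all probe sets above the median level the corresponding shares were near even (45.5% to 55.7%). Genes outside the set also moved with these arrays, in both directions. Mcm2, a proliferation gene, stood at 14.28, 13.51, 13.90 and 13.88 on Scr 8, shZeb1_C 12, shZeb1_D 14 and shZeb1_D 15. On the other arrays it stood at 15.08 to 15.74. Riok1, another small subunit gene, stood at 14.54, 14.57, 14.63 and 13.74 on the former and 13.03 to 13.55 on the latter.

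**Figure D2:**
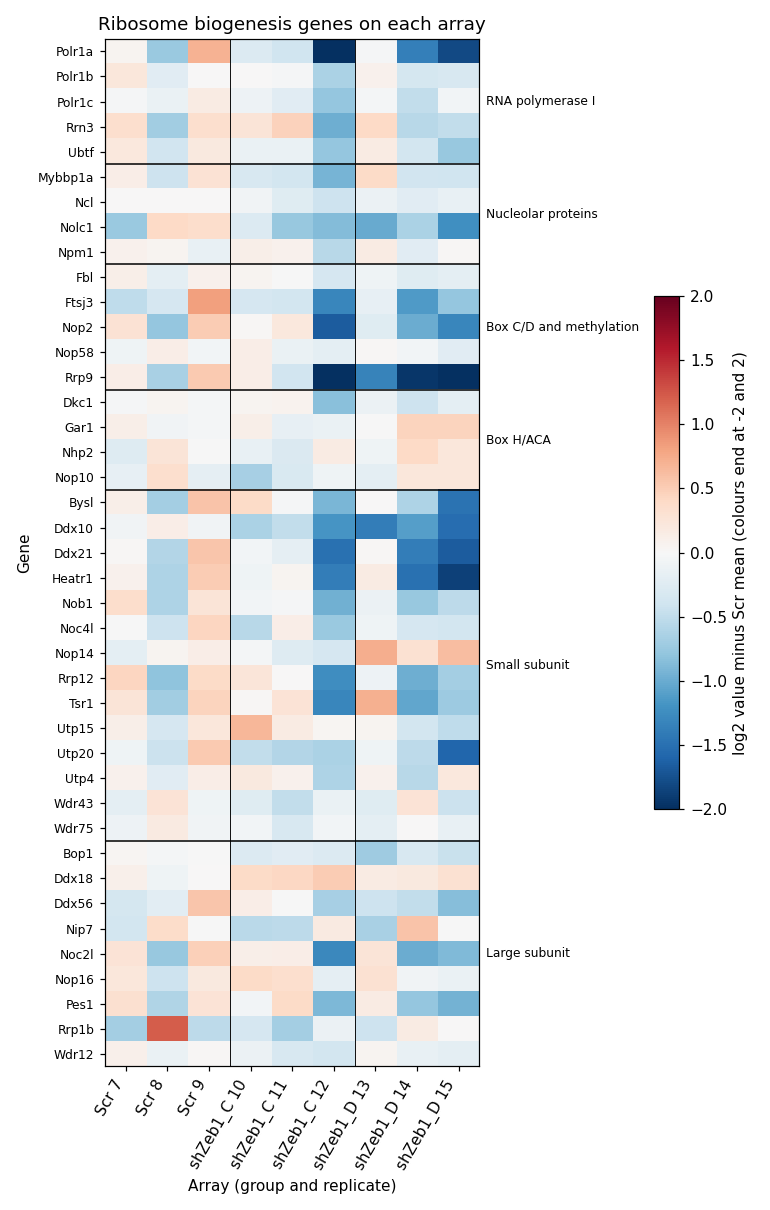
Log2 value minus the Scr mean (colour, blue lower and red higher, ending at -2 and 2) for each of the 41 genes (rows, by role) on each of the 9 arrays (columns). Arrays Scr 8, shZeb1_C 12, shZeb1_D 14 and shZeb1_D 15 are bluer than the other arrays of their own group, with 27 to 34 of 41 genes below the group mean.

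Those 4 arrays also shared the sign of the leading principal component that all named probe sets gave after group means were removed, a component with 57.9% of the within-group variance. Within the set of Scr 7, Scr 9, shZeb1_C 10, shZeb1_C 11 and shZeb1_D 13, the median over the members was -0.23 for shZeb1_C and -0.11 for shZeb1_D. Within the set of the other 4 arrays it was -0.40 and -0.19. With array set in the fit it was -0.29 and -0.13. The sets were taken from these same values, so they serve only to hold arrays apart, and no test is drawn from a fit that uses them.

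The 5 measured genes of ribosomal RNA transcription gave no call, with log2 differences of -0.96 to -0.08 in shZeb1_C and -1.06 to -0.19 in shZeb1_D. Polr1a, the largest catalytic subunit of RNA polymerase I, stood at 9.99, 9.19 and 10.64 in Scr, 9.67, 9.54 and 7.72 in shZeb1_C and 9.91, 8.58 and 8.14 in shZeb1_D. The low values were those of shZeb1_C 12, shZeb1_D 14 and shZeb1_D 15, and the groups overlapped. The difference was -0.96 ± 0.62 (SE) in shZeb1_C and -1.06 ± 0.62 in shZeb1_D, giving limma adjusted p of 0.820 and 0.492. Without shZeb1_C 12 the shZeb1_C difference was -0.34. Polr1b, the second-largest subunit, varied less, at 15.51, 15.06 and 15.29 in Scr, 15.30, 15.26 and 14.66 in shZeb1_C and 15.38, 14.94 and 14.97 in shZeb1_D. Its differences of -0.21 ± 0.22 and -0.19 ± 0.22 did not pass the test. Polr1c, a subunit shared with RNA polymerase III, Ubtf, which bends the ribosomal DNA promoter, and Rrn3, which recruits the polymerase to it, had differences between -0.37 and -0.08 with both hairpins.

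Among the nucleolar proteins, 0 of 4 were called. Nolc1, a scaffold that links nucleoli with Cajal bodies, stood at 10.70, 11.84 and 11.79 in Scr, 11.16, 10.68 and 10.58 in shZeb1_C and 10.43, 10.80 and 10.22 in shZeb1_D. Scr 7 lay within the hairpin arrays and the other Scr arrays above them. The difference was -0.64 ± 0.32 in shZeb1_C and -0.96 ± 0.32 in shZeb1_D (limma adjusted p of 0.664 and 0.237). Npm1, nucleophosmin, a gene often mutated in acute myeloid leukaemia, stood at 15.60, 15.57 and 15.36 in Scr, 15.63, 15.60 and 14.96 in shZeb1_C and 15.68, 15.29 and 15.53 in shZeb1_D. The groups overlapped, with differences of -0.11 ± 0.21 and -0.01 ± 0.21. Ncl, nucleolin, was lower on all 6 hairpin arrays (14.47 to 14.81) than on the Scr arrays (14.88 to 14.89), but by only -0.24 ± 0.14 and -0.17 ± 0.14, short of the threshold. Mybbp1a, a nucleolar Myb-binding protein, had differences of -0.54 ± 0.28 and -0.13 ± 0.28.

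The box C/D and methylation genes held the largest single difference, without a call (0 of 5). Rrp9, a protein of the U3 snoRNP that guides early precursor cleavage, stood at 13.28, 12.50 and 13.67 in Scr, 13.28, 12.76 and 10.93 in shZeb1_C and 11.81, 11.20 and 10.66 in shZeb1_D. All shZeb1_D arrays lay below all Scr arrays, while the shZeb1_C arrays spanned both. In shZeb1_D it was at 26.3% of Scr, a log2 difference of -1.93 ± 0.58 with a limma adjusted p of 0.200, and in shZeb1_C the difference was -0.83 ± 0.58. The range within shZeb1_C, 2.35, was the widest within-group range of any member. Without shZeb1_C 12 the shZeb1_C difference was -0.13. Within the array sets the shZeb1_D difference was -1.66 and -1.57.

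Fbl, fibrillarin, the methyltransferase of box C/D snoRNPs, stood at 16.17, 15.86 and 16.14 in Scr, 16.11, 16.05 and 15.73 in shZeb1_C and 15.97, 15.82 and 15.87 in shZeb1_D. Its differences of -0.09 ± 0.16 and -0.17 ± 0.16 were within the spread of the groups. Ftsj3, a ribosomal RNA methyltransferase of the large subunit pathway, stood at 7.56, 7.73 and 8.88 in Scr, 7.73, 7.69 and 6.75 in shZeb1_C and 7.90, 6.92 and 7.28 in shZeb1_D. Scr 9 was high and the groups overlapped, with differences of -0.67 ± 0.41 and -0.69 ± 0.41. Nop2, another ribosomal RNA methyltransferase, had -0.48 and -0.85, and Nop58, a box C/D core protein, -0.07 and -0.08.

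**Figure D3:**
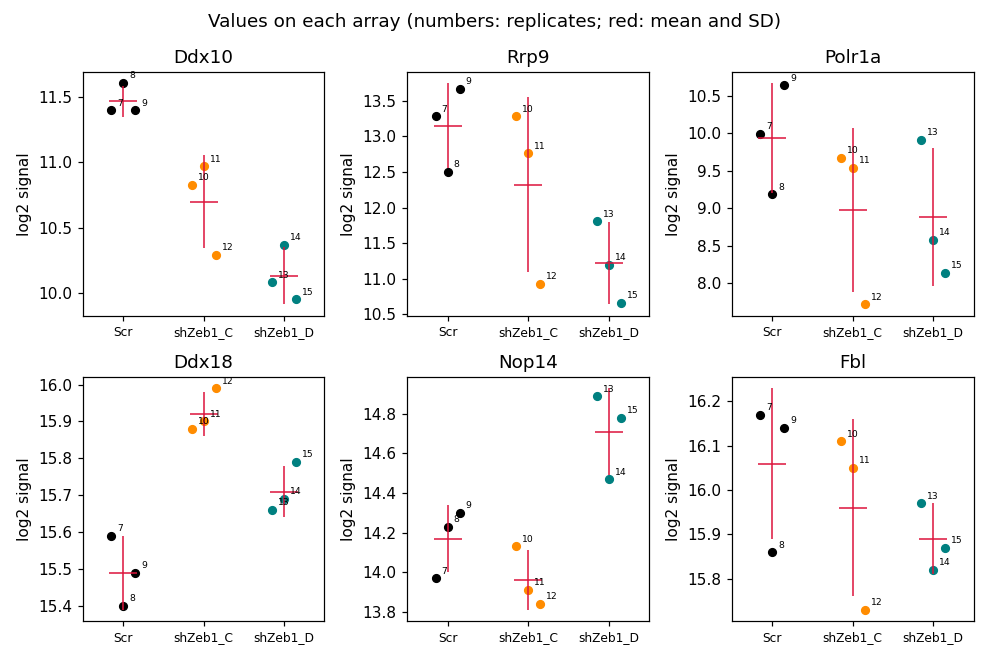
Log2 signal (y axis, scale differs by panel) of 6 genes on each of the 9 arrays, by group (x axis); numbers give the replicate, red marks the mean and SD of 3 arrays. Ddx10 and Rrp9 in shZeb1_D lie wholly below Scr, Ddx18 lies above Scr with both hairpins, Nop14 with sequence D, and Polr1a and Fbl overlap.

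The box H/ACA core differed little in level, and 0 of 4 genes were called. Nop10, a short core protein, stood at 15.59, 16.09 and 15.57 in Scr, 15.09, 15.45 and 15.66 in shZeb1_C and 15.56, 15.97 and 15.97 in shZeb1_D. Nhp2, which binds the guide RNA, stood at 15.53, 16.05 and 15.78 in Scr, 15.64, 15.50 and 15.95 in shZeb1_C and 15.71, 16.19 and 16.01 in shZeb1_D. Both genes overlapped between groups, and Scr 8 was the highest Scr array for each. Gar1, needed for the release of substrate RNA, stood at 13.91, 13.73 and 13.76 in Scr, 13.92, 13.63 and 13.67 in shZeb1_C and 13.79, 14.25 and 14.24 in shZeb1_D. In shZeb1_D the differences of Gar1, Nhp2 and Nop10 were 0.29 ± 0.17, 0.18 ± 0.20 and 0.08 ± 0.22, and in shZeb1_C they were -0.06, -0.09 and -0.35. Gar1 in shZeb1_D was -0.04 within the set of arrays 7, 9, 10, 11 and 13, and Nop10 there turned sign under 5 of the settings given in the closing section. Dkc1, dyskerin, the pseudouridine synthase itself, had -0.23 ± 0.24 and -0.24 ± 0.24.

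In the small subunit group, 1 of 14 genes was called lower in shZeb1_D and 0 in shZeb1_C. Over all probe sets 0.445% and 0.286% were called lower, so these counts do not set the group apart. Ddx10 stood at 11.40, 11.61 and 11.40 in Scr, 10.83, 10.97 and 10.29 in shZeb1_C and 10.08, 10.37 and 9.95 in shZeb1_D. All 6 hairpin arrays lay below all Scr arrays, as they did for 416 of the 19572 probe sets. Ddx10 fell in shZeb1_D to 39.6% of Scr, a log2 difference of -1.34 ± 0.20 (SE) with a limma adjusted p of 0.0242, and stood at 58.5% of Scr in shZeb1_C, -0.77 ± 0.20, which did not pass (limma adjusted p = 0.166). For the mean of both hairpins, where 0.828% of all probe sets were called, it was the only member called (-1.06 ± 0.18, limma adjusted p = 0.0317). The exact two-sided permutation test over arrays gave p = 0.1 against Scr for each hairpin, the smallest that 3 arrays against 3 allow.

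The call of Ddx10 in shZeb1_D was lost without Scr 7 (limma adjusted p = 0.0763), Scr 8 (0.0724), Scr 9 (0.125), shZeb1_D 13 (0.051) or shZeb1_D 15 (0.123), while the difference stayed between -1.46 and -1.25. Within the array sets the difference was -1.32 and -1.45, the first with 1 shZeb1_D array and the second with 1 Scr array. Ddx10 lies on chromosome 9 in a stretch whose genes also stood lower. The median log2 difference of its 50 nearest neighbours above the median level, 25 on each side, was -0.45 in shZeb1_C and -0.44 in shZeb1_D, and their part in the result was not tested.

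Of the other small subunit genes, Heatr1, a subunit that also serves ribosomal RNA transcription, stood at 10.03, 9.33 and 10.45 in Scr, 9.85, 10.00 and 8.55 in shZeb1_C and 10.10, 8.44 and 8.08 in shZeb1_D. Ddx21, a nucleolar helicase, stood at 13.15, 12.54 and 13.69 in Scr, 13.08, 12.95 and 11.63 in shZeb1_C and 13.16, 11.74 and 11.46 in shZeb1_D. For both genes shZeb1_D 13 lay among the Scr values and shZeb1_C 12, shZeb1_D 14 and shZeb1_D 15 lay below them. The differences in shZeb1_D, -1.06 ± 0.57 and -1.01 ± 0.53, had limma adjusted p of 0.452 and 0.445.

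Nop14, a core factor of the processome, stood at 13.97, 14.23 and 14.30 in Scr, 14.13, 13.91 and 13.84 in shZeb1_C and 14.89, 14.47 and 14.78 in shZeb1_D. All shZeb1_D arrays lay above both other groups. The difference from Scr was 0.55 ± 0.17 (limma adjusted p = 0.211), and the median of its 50 neighbours on chromosome 5 was 0.38 in shZeb1_D and 0.02 in shZeb1_C. Utp15, of the subcomplex that binds the nascent precursor first, stood at 10.94, 10.50 and 11.05 in Scr, 11.49, 10.99 and 10.87 in shZeb1_C and 10.89, 10.47 and 10.32 in shZeb1_D. Its groups overlapped, at 0.29 ± 0.23 and -0.27 ± 0.23. Bysl, Nob1, Noc4l, Rrp12, Tsr1, Utp20, Utp4, Wdr43 and Wdr75 had differences between -0.58 and -0.10 in shZeb1_C and between -0.74 and -0.08 in shZeb1_D, with 0 calls.

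Of the 9 measured large subunit genes 0 were called, and they included the member with the highest positive difference in shZeb1_C. Ddx18, a helicase of early large subunit assembly, stood at 15.59, 15.40 and 15.49 in Scr, 15.88, 15.90 and 15.99 in shZeb1_C and 15.66, 15.69 and 15.79 in shZeb1_D. All hairpin arrays lay above all Scr arrays, and the range within any group was at most 0.19. The differences were 0.43 ± 0.13 in shZeb1_C (135% of Scr) and 0.22 ± 0.13 in shZeb1_D (116%). Neither passed (limma adjusted p of 0.241 and 0.491). Nop16, an assembly factor of the same subunit, stood at 15.11, 14.47 and 15.09 in Scr, 15.28, 15.22 and 14.71 in shZeb1_C and 15.20, 14.82 and 14.75 in shZeb1_D. The groups overlapped, with 0.18 ± 0.24 and 0.03 ± 0.24.

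Bop1, Pes1 and Wdr12 form the PeBoW complex, which processes the precursor of the large subunit RNAs. Bop1 was lower on all 6 hairpin arrays (14.40 to 14.88) than on Scr arrays (15.07 to 15.15), by -0.26 ± 0.14 in shZeb1_C and -0.49 ± 0.14 in shZeb1_D (limma adjusted p of 0.725 and 0.188). Pes1 and Wdr12 overlapped with Scr, at -0.19 and -0.26 in shZeb1_C and -0.51 and -0.10 in shZeb1_D. Ddx56, a helicase and the only member below the median level of all probe sets, had -0.18 and -0.58. Nip7, Noc2l and Rrp1b, further assembly factors, had -0.38 to -0.29 in shZeb1_C and -0.54 to -0.03 in shZeb1_D.

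Counted by arrays alone, 4 of 41 genes lay wholly below Scr in shZeb1_C (Bop1, Ncl, Utp20 and Ddx10), where 6.74% of all probe sets did, and 1, Ddx18, wholly above (7.5% of all). In shZeb1_D 6 genes lay wholly below Scr (Rrp9, Dkc1, Bop1, Ddx56, Ncl and Ddx10), where 6.65% of all probe sets did, and Ddx18 and Nop14 wholly above (10.3% of all). All but Ddx56 of the 41 members were above the median level. Of the 9786 probe sets above that level, 887 lay wholly below Scr in shZeb1_C and 948 in shZeb1_D. Wholly above Scr lay 819 and 831 of them.

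Between the hairpins, compared directly, 0 of 41 genes were called, where 0.848% of all probe sets were. At an unadjusted p under 0.05, 3 genes passed, where 11.7% of all probe sets did. Nop14 was the nearest to the threshold, higher in shZeb1_D by 0.75 ± 0.17 (limma adjusted p = 0.0971). Utp15 and Ddx10 were at -0.56 ± 0.23 and -0.56 ± 0.20. The median over the members was -0.02, with 24 of 41 below 0 (52.2% of the probe sets above the median level). It was 0.11 with array set in the fit, so it has no firm sign. The difference of Rrp9, -1.10 ± 0.58, and that of Gar1, 0.35 ± 0.17, did not pass, and an SE of this size leaves smaller differences undetectable with 3 arrays a group.

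Each gene was also set beside its chromosomal neighbours above the median level. The medians of the neighbours ran from -0.45 (Ddx10) to 0.43 (Nop16) in shZeb1_C and from -0.44 (Ddx10) to 0.40 (Gar1) in shZeb1_D. Rrp9, also on chromosome 9, had neighbours at -0.04 and -0.16, and Polr1a at -0.10 and 0.02. Neither gene was called against Scr, and the part of the neighbours was not tested. Gar1, with 0.29 in shZeb1_D, had neighbours at 0.40, and Nop16, with 0.18 in shZeb1_C, at 0.43.

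**Figure D4:**
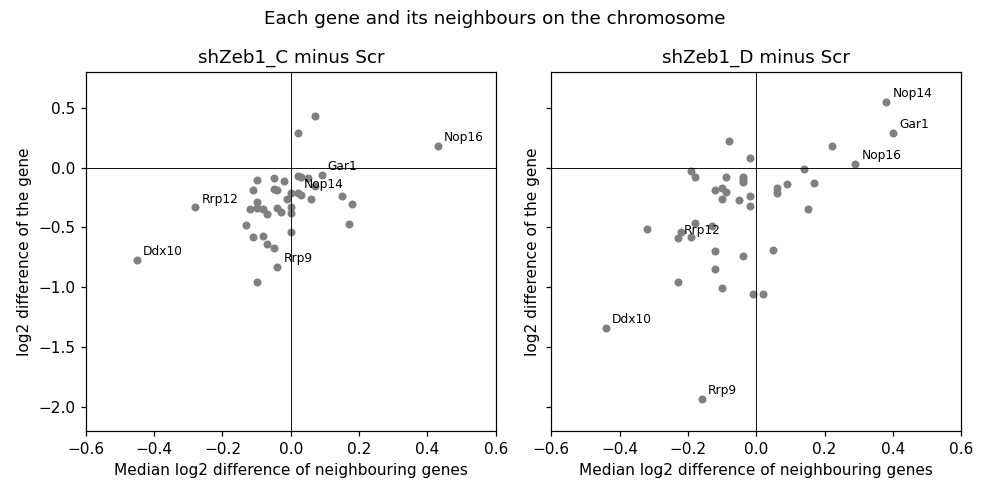
Log2 difference from Scr of each of the 41 genes (y axis) against the median log2 difference of up to 50 neighbouring genes above the median level (x axis), for shZeb1_C on the left and shZeb1_D on the right. Ddx10 has the lowest neighbour median in both panels (-0.45 and -0.44), and Rrp9 lies far below a neighbour median near 0.

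Further genes of the pathway, from lists outside the 41, gave 1 call against Scr. Of 41 other small subunit processome genes, 1 was called lower in shZeb1_C and 0 in shZeb1_D (0.286% and 0.445% of all probe sets). The medians were -0.24 and -0.11. The 1 was Rcl1, an endonuclease-like processing factor, at 11.65, 10.80 and 11.79 in Scr, 9.97, 9.94 and 9.40 in shZeb1_C and 11.15, 10.31 and 10.71 in shZeb1_D. The shZeb1_C arrays were below all others. Rcl1 fell by 1.64 ± 0.31 on the log2 scale (limma adjusted p = 0.0495), and its 50 neighbours on chromosome 19 had a median of -0.53 in shZeb1_C and 0.03 in shZeb1_D. In shZeb1_D the largest differences of this list were those of Nol6 (-1.46 ± 0.76), Tbl3 (-1.03 ± 0.45) and Ddx49 (-1.03 ± 0.73), without a call.

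Of 39 other large subunit genes, 0 were called with either hairpin, with medians of -0.21 and -0.38. At an unadjusted p under 0.05, 3 were lower in shZeb1_C and 8 in shZeb1_D (4.26% and 6.09% of all probe sets). Of the 9786 probe sets above the median level, 686 and 990 were lower by that rule. Ddx27, a helicase, had -0.83 ± 0.51 and -1.56 ± 0.51, Noc3l, a transport factor of the precursor, -1.25 ± 0.37 in shZeb1_C, and Eif6, which keeps the subunits apart, -1.03 ± 0.44 in shZeb1_D. Of 15 other RNA polymerase I genes 0 were called (medians -0.23 and -0.12). Taf1b, of the promoter selectivity factor, had -0.83 ± 0.34 and -0.79 ± 0.34, Znrd1, a polymerase subunit, 0.80 ± 0.46 in shZeb1_C, and Taf1c -0.82 ± 0.44 in shZeb1_D. Of 20 snoRNP assembly and RNA exosome genes 0 were called (medians -0.19 and -0.05), with Shq1, a chaperone of dyskerin, at -0.78 ± 0.53 and Exosc5 at -0.68 ± 0.27 in shZeb1_C, and Exosc9 at 1.04 ± 0.33 and Ruvbl2 at -0.95 ± 0.34 in shZeb1_D. In shZeb1_C and shZeb1_D, 84.6% and 84.6% of the other large subunit genes and 85.4% and 68.3% of the other small subunit genes were below 0. The shares were 80% and 60% for the other RNA polymerase I genes, and 85% and 50% for the snoRNP assembly and exosome genes. Of the probe sets above the median level, 54.3% and 54.9% were below 0. In shZeb1_D the median of the snoRNP assembly and exosome list equalled that of those probe sets (-0.05).

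Of 22 growth regulators of ribosome production 0 were called with either hairpin (medians -0.07 and -0.20). Cad, the first enzyme of pyrimidine synthesis, had -1.04 ± 0.79 and -0.81 ± 0.79, Mxd3, a Max partner, 0.99 ± 0.56 in shZeb1_C, and Mnt, another Max partner, -1.0 ± 0.56 in shZeb1_D. Myc, named after its values were seen, stood at 13.85, 13.23 and 13.65 in Scr, 13.90, 14.00 and 12.38 in shZeb1_C and 14.28, 13.29 and 13.15 in shZeb1_D. Its groups overlapped, and shZeb1_C 12 was the lowest array. Of 17 proliferation genes Aurka, a mitotic kinase, fell with both hairpins, with log2 differences of -1.32 ± 0.22 and -1.75 ± 0.22 (limma adjusted p of 0.0271 and 0.011), and its neighbours on chromosome 2 had medians of -0.84 and -0.71. The medians of that list were -0.17 and -0.59, with 70.6% and 76.5% of its genes below 0. Over all probe sets, 0.286% and 0.445% were called lower.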

How the data were processed

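The authors deposited RMA signals per probe set on a linear scale, with the decimal point missing. RMA and the Transcriptome Analysis Console are named in the submitters' processing notes. For versions and genome build: not given in the sources used here. Each of the 199854 values was returned to log2 by the decimal place that makes it a multiple of 0.01, within 1e-06 steps. Array medians then ran from 7.02 to 7.17. The number of arrays limits the precision.

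All 19572 probe sets with 1 gene symbol (0 had several, 2634 are unnamed here) were fitted with limma 3.58.1 in R 4.3.3, with a mean per group over 9 arrays, empirical Bayes moderation and Benjamini-Hochberg adjustment over all probe sets within each comparison, and called at an adjusted p under 0.05. The fit was tested on simulated data with independent noise for each probe set. Shifts shared by many probe sets on an array were not simulated, so that test does not cover them. Array by array values are given for called members, the 5 largest rises and falls per hairpin (3 were above 0 in shZeb1_C) and the highest-mean member of each role. From each further list up to 4 called genes are named, or the 2 with the largest difference. Members and lists were chosen with earlier results of these data known. Neighbours follow gene order in RefSeq GRCm38.p6. Alternatives covered filters, normalization, variance settings, array weights, array sets and leaving out each array. Within-set differences were added after seeing the data.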

Additional observations from a re-analysis of the deposited data

Results flagged for a closer look

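Ccne1, cyclin E1, a proliferation gene set beside the ribosome biogenesis genes, differed between the hairpins by a direct test. It was lower in shZeb1_D than in shZeb1_C, with a log2 difference of -1.12 ± 0.19 (SE, limma adjusted p = 0.0306). It stood at 14.67, 14.31 and 14.59 in Scr, 14.73, 15.08 and 15.06 in shZeb1_C and 13.88, 14.08 and 13.55 in shZeb1_D, so all shZeb1_D arrays were lower than all others. Its 50 neighbours on chromosome 7 had a median of 0.05 in the same comparison, and of 0.02 and -0.01 against Scr. Against Scr, Ccne1 differed by 0.43 ± 0.19 in shZeb1_C and -0.69 ± 0.19 in shZeb1_D, without a call.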

How the results depend on the processing

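No paired analysis was possible because the groups share no replicate number. Against 1 member called in shZeb1_D and 1 for the mean of both hairpins, 0 were called with an intensity trend in the variance prior or without moderation, in both comparisons. In shZeb1_D 0 were called within either array set, and for the mean 0 within the set of 5 arrays and 2 within the set of 4. The share of all probe sets called under these alternative settings is not given here, so such counts have no background beside them. With array weights 2 were called in shZeb1_D and 1 between the hairpins (0 otherwise). With array set in the fit 2 were called in each of the 4 comparisons, and within the set of 4 arrays 2 in shZeb1_C (0 otherwise). Neither is a test: the sets come from the residuals of the same values, which lowers the spread by construction, and within a set an arm can hold 1 array (in the set of 4, 1 of Scr and 1 of shZeb1_C), assumed to vary like the others. Leaving out each array gave 0 to 1 calls in shZeb1_D and for the mean, and 0 in the others; for the mean the call was lost without Scr 7, 8 or 9, shZeb1_C 10 or shZeb1_D 15. The cause was not tested. The medians over the members against Scr stayed below 0 under every setting tried, from -0.35 to -0.11 in shZeb1_C and -0.43 to -0.17 in shZeb1_D when leaving out arrays.

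Differences near 0 changed sign. Nop10 in shZeb1_D was 0.00 with array medians subtracted, -0.06 with array set in the fit, and -0.02 and -0.12 within the sets. Npm1 was 0.09 in shZeb1_C and 0.01 in shZeb1_D with array weights, 0.08 in shZeb1_D with array set in the fit, and 0.14 and 0.20 within the set of 5 arrays, where Gar1 in shZeb1_D was -0.04. Leaving out arrays gave -0.23 to 0.10 for Npm1, -0.03 to 0.36 for Nop16, -0.22 to 0.04 for Nhp2 and -0.19 to 0.02 for Fbl in shZeb1_C, and -0.10 to 0.09 for Npm1 and -0.01 to 0.25 for Nop10 in shZeb1_D. With 3 arrays a group, these differences cannot be placed above or below 0, and a difference larger than its SE does not thereby have a firm sign.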
